A study of Mus musculus with 22 samples.

Results

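The cytosolic ribosomal protein genes were described across 22 libraries of donor T cells. They were chosen by symbol, as rows starting with Rpl or Rps and a digit, or named Rplp0, Rplp1, Rplp2 or Rpsa, without symbols that contain -ps and without the Rps6k kinases. Of 24091 gene names in the table, 104 had such a symbol. Of these, 10 were kinases and 6 were -ps symbols, and 82 of the other 88 had at least 1 CPM, the count scaled to library size, in at least 5 libraries. The 6 below that floor were Rpl10l, Rpl26, Rpl36a, Rpl36al, Rpl3l and Rps29. Just inside the floor, Rpl23a reached 1 CPM in 9 libraries, and just outside it, Rps29 reached 1 CPM in 3 libraries. Of the 82 genes, 49 carry large-subunit symbols and 33 carry small-subunit symbols.

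Every library came from donor T cells of wild-type C57BL/6 mice in lethally irradiated wild-type BALB/c recipients of a haematopoietic cell transplant (HCT). The recipients were injected with IgG as the control or with an anti-IL-2 antibody that blocks the cytokine, and on day 7 T cells of donor origin, CD4 or CD8, were isolated by flow sorting out of the spleen or the colon (called gut here). The 8 groups are CD4 spleen IgG, CD4 spleen anti-IL-2, CD8 spleen IgG and CD8 spleen anti-IL-2 with 3 libraries each, CD4 gut anti-IL-2 and CD8 gut anti-IL-2 with 3 each, and CD4 gut IgG and CD8 gut IgG with 2 each. The labels name 3 batches, 181201, 181212 and 190306, each with 1 library of every group, except that batch 181201 holds no gut IgG library. Recipients without PD-L1, named in the title of the series, were not analysed here. For the 5 CD8 IgG libraries the description names the other tissue, and the tissue of the source name was used. By source name, epithelial markers summed to 77.6 and 69.8 CPM in the gut ones and 21.5 to 25.6 in the spleen ones. Stress and immediate early genes summed to 9387 and 8790 in the gut ones and 1790 to 2467 in the spleen ones. These sums go with the source name. The labels do not say whether libraries came from separate or pooled animals, so p-values measure the spread between these libraries.

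A ribosome consists of a small subunit, which reads the messenger RNA, and a large subunit, which forms the peptide bonds, and each cytosolic ribosomal protein is present in about equal number in the finished particle. The messenger RNAs of these proteins start with a C followed by a run of pyrimidines, the terminal oligopyrimidine (TOP) tract, through which mTORC1 and the RNA-binding protein LARP1 control their translation. T cells activated by antigen and IL-2 build many ribosomes as they grow and divide.

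The start of the transcript is shown for 9 genes because the pyrimidine run there is the known mark of these messenger RNAs. Windows of 30 bases around the RefSeq start (15 bases on each side, GRCm38.p6) are written 5′ to 3′ on the strand of the gene. Capitals mark a run of at least 7 C or T bases that begins with C within 5 bases of the annotated start, as a script found it. Rps27 and Rps10 encode small-subunit proteins, Rps6 is the small-subunit protein phosphorylated by the S6 kinases, Rps26 sits near the messenger RNA exit channel, and Rpl28, Rpl13a, Rpl7a and Rpl35a belong to the large subunit, as does the stalk protein Rplp2.
Rps27, chr3:90213634-90213663, minus strand: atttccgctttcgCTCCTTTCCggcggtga
Rps6, chr4:86857353-86857382, minus strand: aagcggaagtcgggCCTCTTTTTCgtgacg
Rps10, chr17:27635230-27635259, minus strand: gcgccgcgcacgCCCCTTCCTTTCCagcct
Rps26, chr10:128626492-128626521, minus strand: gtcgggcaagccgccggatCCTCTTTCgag
Rpl28, chr7:4792950-4792979, plus strand: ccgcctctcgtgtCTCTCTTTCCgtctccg
Rpl13a, chr7:45128731-45128760, minus strand: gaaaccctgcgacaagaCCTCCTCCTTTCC
Rpl7a, chr2:26910792-26910821, plus strand: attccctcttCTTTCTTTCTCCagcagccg
Rpl35a, chr16:33056467-33056496, plus strand: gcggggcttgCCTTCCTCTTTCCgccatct
Rplp2, chr7:141447636-141447665, plus strand: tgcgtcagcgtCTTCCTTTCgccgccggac

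In their windows the relatives Rps27l and Rpl7l1 had no run that meets this rule, and they are shown for contrast. The Rps27l window does hold a run of C and T bases that begins with C, but further upstream of the start. In the Rpl7a window above, the capitals begin inside a longer stretch of C and T bases.
Rps27l, chr9:66946071-66946100, plus strand: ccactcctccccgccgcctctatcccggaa
Rpl7l1, chr17:46782642-46782671, minus strand: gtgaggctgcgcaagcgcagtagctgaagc

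A start window was found for 62 of the 82 genes. Of these 62, 24 (38.7%) held the run, against 849 of 10042 tested genes outside the group (8.45%), 2 of 69 mitochondrial ribosomal protein genes (2.9%) and 2066 of all 27025 promoters in the table (7.64%). On the opposite strand the run was present in 4 of the 62 windows (6.45%). Rpl10, Rps12, Rps13 and Rplp0 had no run within 5 bases of the annotated start, which says only that these letters were not found in these windows.

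Rps27 and Rps27l are a pair of related genes that the data set apart, and their coding starts are shown for that reason. Rps27l is known as a target of p53. Both coding sequences are 252 bases long without the stop codon, and they are 76.2% identical, with 60 differing bases. The first 120 coding bases follow, from GENCODE M21 transcripts on GRCm38, 5′ to 3′, with the 28 differing bases in capitals.
Rps27, gene at chr3:90212522-90213651, minus strand: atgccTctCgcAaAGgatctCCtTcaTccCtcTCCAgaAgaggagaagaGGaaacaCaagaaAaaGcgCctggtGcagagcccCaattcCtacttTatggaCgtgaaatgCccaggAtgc
Rps27l, gene at chr9:66946086-66949516, plus strand: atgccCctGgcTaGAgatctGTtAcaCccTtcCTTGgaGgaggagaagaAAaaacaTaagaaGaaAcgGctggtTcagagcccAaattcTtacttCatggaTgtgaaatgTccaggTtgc
The whole Rps27 stretch also occurs in 1 other annotated gene, Rps27rt, and the Rps27l stretch occurs in 0 others.

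The libraries held 14628806 to 24518362 counts and carried the lineage genes of their labels: the summed CPM of the 3 CD4 lineage genes was 2219 to 3098 in CD4 libraries and 72.5 to 124 in CD8 libraries. In batch 190306, Il2ra, a gene that IL-2 signalling induces, exceeded the IgG library in each library labelled anti-IL-2 (log2 difference 1.57 to 1.83), while in the other batches it was below it (-1.11 to -2.05). Socs2 likewise exceeded the IgG library in batch 190306 (2.65 to 4.64) and was below it in the other batches (-1.89 to -3.77). The labels were kept as given, and whether those of batch 190306 are exchanged was not tested. Treatment results are therefore given with and without that batch. Markers of other cell types differed between the tissues in both directions. Summed CPM of 10 epithelial markers was 39.9 to 193 in gut and 18.7 to 25.6 in spleen, and that of 7 B and plasma cell markers was 15.7 to 477 in gut and 2.65 to 21.6 in spleen, and Ms4a1, a B cell gene, was at 0 in all libraries of 1 spleen and 3 gut groups. The keratin genes Krt8 and Krt20 were at 0 in 3 of the 4 spleen groups and in no gut group. The summed CPM of 13 fat, pancreas and fibroblast markers reached 60.3 in gut and 2.84 in spleen, and 25 stress and immediate early genes summed to 3539 to 11930 in gut and 1790 to 3845 in spleen. The sum of 4 measured erythroid markers reached 39.1 in spleen and 1.47 in gut, that of 6 neutrophil markers reached 52.8 in spleen and 7.94 in gut, and that of 16 macrophage markers was 422 to 997 in spleen and 508 to 726 in gut. The summed CPM of dendritic cell markers was 26.1 to 76.3 in CD4 spleen and 75.1 to 180 in CD4 gut libraries. In CD8 libraries it was 308 to 489 in spleen and 433 to 618 in gut, so it differed between the cell types in both tissues. The part of all these markers in the tissue and cell type results below was not tested. In bulk libraries, fewer cells of a type and less RNA per cell cannot be told apart.

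The 82 genes together took 1.09 to 1.43% of all counts, with a median of 1.24%. The mean share was 1.20 ± 0.0693% (SD, n = 3) in CD4 spleen IgG, 1.25 ± 0.0734% (n = 3) in CD4 spleen anti-IL-2, 1.25 ± 0.0298% (n = 2) in CD4 gut IgG and 1.17 ± 0.122% (n = 3) in CD4 gut anti-IL-2. In CD8 cells it was 1.18 ± 0.0621% (n = 3) in spleen IgG, 1.23 ± 0.0205% (n = 3) in spleen anti-IL-2, 1.27 ± 0.0447% (n = 2) in gut IgG and 1.33 ± 0.093% (n = 3) in gut anti-IL-2. The groups overlapped, and the highest single library was CD8 gut anti-IL-2 of batch 181201.

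**Figure D1:**
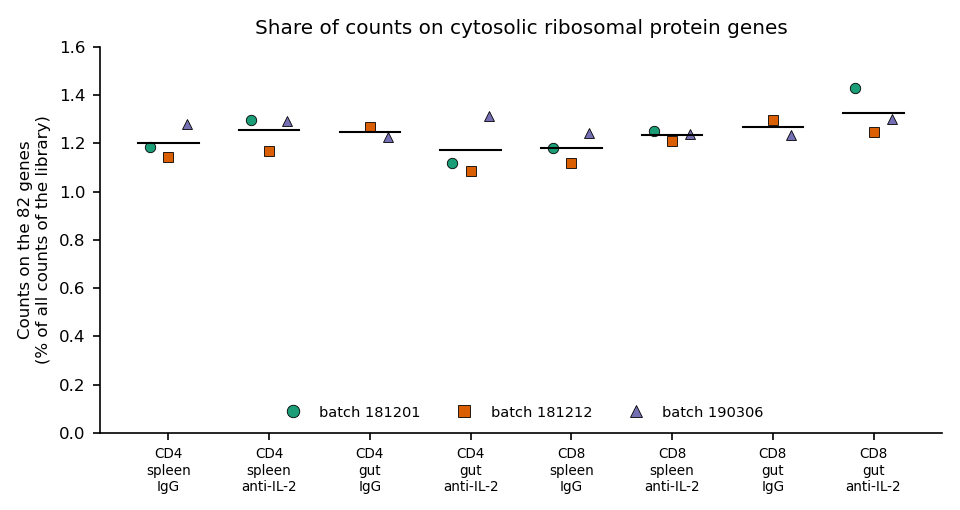
Share of all counts of a library that fell on the 82 genes (percent, vertical axis from 0) in each group; each point is a library, its colour and shape give the batch, and the black line is the group mean. The shares run from 1.09 to 1.43%, and the groups overlap.

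Counts were spread unevenly over genes whose proteins are present in about equal number. Rpl4 took 14.2% of the counts of the group, Rps3 9.96%, Rpl8 8.27%, the stalk base Rplp0 7.52% and Rpl13a 7.22%, so that these 5 genes held 47.1%. Per kilobase of transcript, the highest median levels over 22 libraries included those of Rpl8 (1194 CPM per kb) and Rpl4 (1155), and the lowest were those of Rps23 (1.37), Rpl23a (1.51) and Rpl24 (1.73). The highest was 869-fold above the lowest. Large-subunit and small-subunit symbols had similar medians, 42.4 and 38.5 CPM per kb. In mean level, 27 genes were below 10 CPM and 27 were at 100 CPM or more.

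Ribosomal protein genes have many processed copies in the genome, and 79 of the 82 shared at least 1 stretch of 50 bases with another annotated gene. How reads that fit several places were counted is not given in the sources used here, so levels and differences of the genes with much shared sequence are uncertain. Levels were lower in genes with more shared sequence. The 16 genes with under 25% of their 100-base windows found in no other gene had a median of 11.5 CPM per kb, and the medians were 20.4 for the 19 genes at 25 to 50%, 53.1 for the 21 genes at 50 to 75%, and 223 for the 26 genes at 75% or more. Across the 82 genes, which share libraries, the Spearman correlation of level per kilobase with that percentage was 0.447. The share of such windows was 1.63% for Rps27, 8.43% for Rpl10, 11.1% for Rps12, 22.4% for Rps13, 53.2% for Rpl28 and 100% for Rps27l. Rpl32l is annotated as a processed pseudogene, and Rpl37rt and Rps4l as transcribed processed pseudogenes. Rps19bp1 and Rpl7l1 carry the symbol but do not encode subunits of the ribosome.

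**Figure D2:**
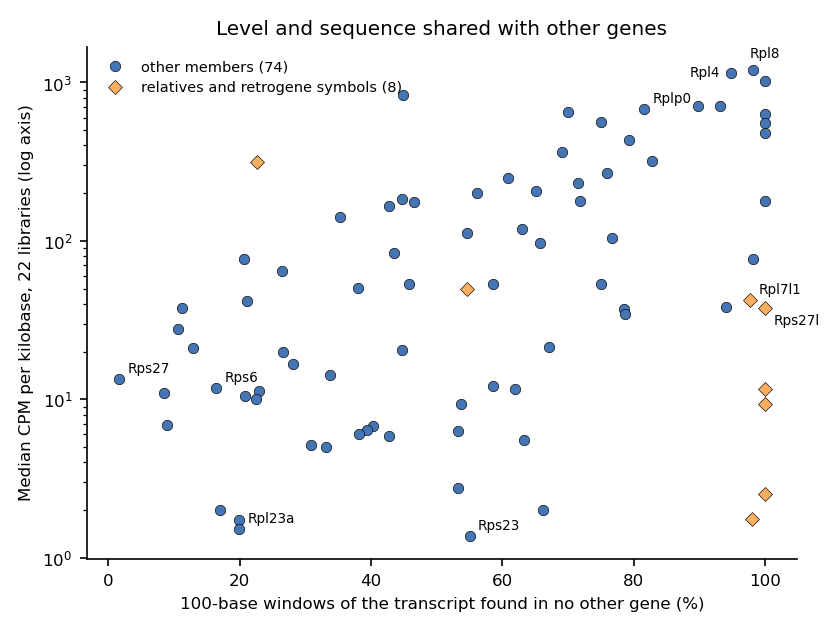
Median CPM per kilobase over 22 libraries (vertical, log axis) against the percentage of 100-base windows of the transcript found in no other gene (horizontal), 1 point per gene; orange diamonds are relatives and retrogene symbols. Genes at 75% or more had a median of 223 CPM per kb and genes under 25% had a median of 11.5.

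Levels varied little between libraries. Among the 27 genes of at least 100 CPM, the median coefficient of variation over the 22 libraries was 11.3%, against 15.5% for all 2580 tested genes at that level, and it was 24.6% for the genes below 10 CPM. With batch means removed, 45 of the 82 genes had a Pearson r above 0.5 to the mean of the group over 22 libraries, and 9 had a negative r, among them Rpl15 (-0.461), Rpl7l1 (-0.425) and Rpl5 (-0.251). The median r was 0.579, and that of all other tested genes to the same mean was 0.034. Among the 37 genes of at least 50 CPM, the median r over 666 pairs was 0.508. The genes are part of the mean they were compared with, and all points share depth and scaling. Among 7485 other genes, the most alike were Rack1 (r = 0.904), a small-subunit protein outside the symbol rule, Ndufa6 (0.903) and Uqcrh (0.889), both of the respiratory chain, Myl6 (0.882), Zfas1 (0.872), Psmd4 (0.859), the elongation factor gene Eef1a1 (0.846), Ddrgk1 (0.841), Rrp1 (0.83) and Rnf113a2 (0.827).

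The first comparison asked how the genes differed between gut and spleen, averaged over IgG and anti-IL-2. In CD8 cells, 31 of the 82 genes were higher in gut and 1, Rpl7l1, was lower, by edgeR's quasi-likelihood test with Benjamini-Hochberg adjustment at 0.05. Over all 12841 genes tested, 35.1% passed in either direction, 18.4% higher and 16.7% lower. The median log2 fold change was 0.17 for the 82 genes and -0.0018 for all genes, and 68 of the 82 values were positive. The calls were 24 when library totals were used without TMM scaling and 23 with an offset for transcript length. Without the CD8 gut IgG library of batch 181212, 17 genes passed, and 18 passed in the contrast of IgG libraries alone, 11 in that of anti-IL-2 libraries alone and 14 without the batch term.

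In CD4 cells, 13 genes were higher in gut and 2, Rps27l and Rpl7l1, were lower. Over all genes, 35.1% passed, 19.1% higher and 16.0% lower. The median log2 fold change was 0.08 for the 82 genes and 0.0055 for all genes, and 59 of 82 values were positive. The split depended on the scaling, with 7 higher and 5 lower without TMM, 8 higher and 4 lower with upper quartile scaling, and 13 higher and 4 lower with the length offset. The contrast of anti-IL-2 libraries alone called 7 and the fit without the batch term called 8. Of the genes that passed, 13 passed in both cell types (12 higher and Rpl7l1 lower), 19 passed in CD8 cells alone and 2, Rpl41 and Rps27l, passed in CD4 cells alone. The difference between the 2 cell types in the tissue difference, tested as an interaction, passed for 0 of the 82 genes and for 0.327% of all genes in edgeR, and also for 0 in DESeq2 and limma voom. At an unadjusted p under 0.05 it reached 4 of the 82, and without batch 190306 it passed for 4 of the 82.

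**Figure D3:**
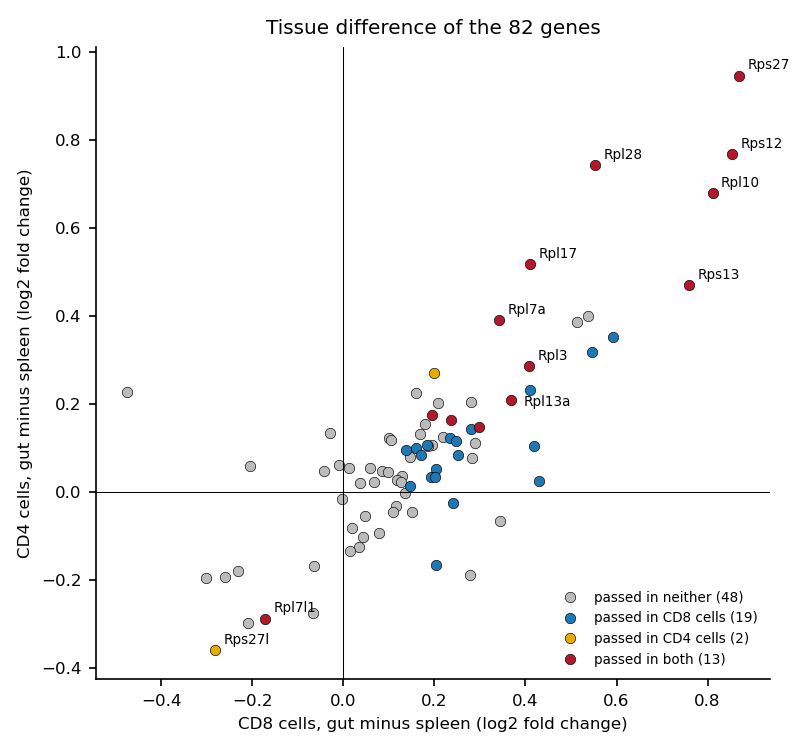
Log2 fold change of gut minus spleen in CD8 cells (horizontal) and CD4 cells (vertical) for the 82 genes, coloured by the cell type in which the gene passed the edgeR test at 0.05. Rps27, Rps12 and Rpl10 are among the 4 highest values in both, Rpl7l1 passed towards spleen in both, and 48 genes passed in neither.

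Rps27 and Rps12, both of the small subunit, had the largest log2 fold changes in both cell types. As classes, large-subunit and small-subunit symbols had medians of 0.10 and 0.06 in CD4 cells, and 0.18 and 0.15 in CD8 cells. Per-library values below are TMM-scaled CPM, in the order of batches 181201, 181212 and 190306, or 181212 and 190306 for gut IgG. Rps27 in CD4 cells was 2.75, 3.35 and 2.96 (IgG) and 4.43, 4.79 and 3.95 (anti-IL-2) in the spleen, and 8.71 and 6.53 (IgG) and 6.45, 6.42 and 6.602 (anti-IL-2) in the gut. In CD8 cells, Rps27 was 3.001, 3.32 and 3.01 (IgG) and 2.99, 3.82 and 3.45 (anti-IL-2) in the spleen, and 7.48 and 5.39 (IgG) and 6.63, 5.38 and 4.79 (anti-IL-2) in the gut. All gut libraries were above all spleen libraries of the same cell type. The log2 fold change of Rps27 was 0.95 ± 0.11 (SE, adjusted p = 2.27e-05 in edgeR) in CD4 cells, 1.93-fold, and 0.87 ± 0.11 (4.8e-05) in CD8 cells, 1.83-fold.

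Rps12 is a small-subunit protein. In CD4 cells Rps12 was 21.6, 17.2 and 16.4 (IgG) and 24.8, 19.3 and 16.0 (anti-IL-2) in the spleen, and 35.4 and 35.4 (IgG) and 31.0, 33.5 and 18.1 (anti-IL-2) in the gut. In CD8 cells Rps12 was 17.9, 12.7 and 11.5 (IgG) and 16.9, 14.6 and 13.1 (anti-IL-2) in the spleen, and 30.2 and 27.9 (IgG) and 23.4, 24.7 and 15.9 (anti-IL-2) in the gut. The gut anti-IL-2 library of batch 190306 was the low gut library in both cell types and fell within the spleen range, and the other gut libraries were above all spleen libraries. Its log2 fold change was 0.77 ± 0.11 (adjusted p = 7.67e-05) in CD4 and 0.85 ± 0.11 (3.39e-05) in CD8 cells. Among other small-subunit genes, Rps13 rose by 0.47 ± 0.16 (0.0338) in CD4 and 0.76 ± 0.16 (0.00238) in CD8 cells, and Rps14 rose by 0.15 ± 0.05 (0.0431) and 0.30 ± 0.05 (0.000596). Rps28 rose by 0.55 ± 0.18 (0.0276) in CD8 cells.

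In the large subunit, Rpl10, which joins late and closes the catalytic region, stood out. In CD4 cells Rpl10 was 7.42, 8.77 and 5.41 (IgG) and 8.90, 10.0 and 5.399 (anti-IL-2) in the spleen, and 15.6 and 10.6 (IgG) and 11.6, 13.3 and 7.99 (anti-IL-2) in the gut. In CD8 cells Rpl10 was 7.61, 6.20 and 5.37 (IgG) and 6.29, 8.64 and 5.45 (anti-IL-2) in the spleen, and 17.1 and 12.1 (IgG) and 8.93, 10.5 and 7.41 (anti-IL-2) in the gut. Batch 190306 was the lowest in each group, and within each batch and treatment the gut library was above the spleen library in both cell types. In the fit, the log2 fold change of Rpl10 was 0.68 ± 0.10 (adjusted p = 0.000101) in CD4 and 0.81 ± 0.10 (2.21e-05) in CD8 cells.

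Rpl13a, a large-subunit protein that also takes part in interferon-induced translational silencing, was among the most counted genes. In CD8 cells Rpl13a was 735, 753 and 855 (IgG) and 810.1, 772 and 818 (anti-IL-2) in the spleen, and 1004 and 1014 (IgG) and 1147, 883 and 1071 (anti-IL-2) in the gut. All 5 CD8 gut libraries were above the 6 CD8 spleen libraries. In CD4 cells Rpl13a was 789, 795 and 913 (IgG) and 829.9, 747 and 909.6 (anti-IL-2) in the spleen, and 963 and 1027 (IgG) and 879, 804 and 1105 (anti-IL-2) in the gut, so that the tissues overlapped between batches. Its log2 fold change was 0.37 ± 0.06 (adjusted p = 0.000498) in CD8 and 0.21 ± 0.06 (0.0208) in CD4 cells.

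Other large-subunit genes rose by less, or from a low level. Rpl3, which lies at the peptide-forming centre, rose by 0.29 ± 0.05 (adjusted p = 0.000457) in CD4 and 0.41 ± 0.05 (2.34e-05) in CD8 cells. Rpl7a rose by 0.39 ± 0.07 (0.000515) in CD4 and 0.34 ± 0.07 (0.00141) in CD8 cells, and Rpl28, at 1.096 to 4.75 CPM, by 0.74 ± 0.16 (0.00199) and 0.55 ± 0.16 (0.0126). Rpl17 rose by 0.52 ± 0.12 (0.00412) and 0.41 ± 0.12 (0.0164).

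The stalk, which recruits translation factors, is formed by Rplp0, Rplp1 and Rplp2 on a base that includes Rpl12. Rplp0 differed by 0.12 ± 0.05 (adjusted p = 0.0926) in CD4 and 0.10 ± 0.05 (0.162) in CD8 cells, Rplp1 by -0.09 and 0.08, and Rplp2 by 0.05 and -0.04, none of which passed. Rpl12 rose in CD8 cells, by 0.43 ± 0.12 (0.0122), and was at 0.02 ± 0.12 (0.896) in CD4 cells. Rpl5 and Rpl11, which with 5S RNA bind the p53 inhibitor Mdm2, differed by -0.19 and 0.21 in CD4 and by -0.26 and 0.28 in CD8 cells, with adjusted p of 0.208 and 0.173 in CD4 and 0.0878 and 0.067 in CD8. Rps6 differed by 0.02 and 0.04, and Rpl22, needed for the development of alpha-beta T cells, by -0.12 and 0.04, and none of them passed.

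A pair of relatives, Rps27l and Rpl7l1, was lower in gut in CD4 cells. Rps27l in CD4 cells was 20.5, 20.1 and 15.9 (IgG) and 17.5, 16.0 and 18.6 (anti-IL-2) in the spleen, and 14.1 and 12.9 (IgG) and 13.0, 12.4 and 17.3 (anti-IL-2) in the gut. Its log2 fold change was -0.36 ± 0.11 (adjusted p = 0.0237) in CD4 cells, against 0.95 for Rps27, and the CD4 gut anti-IL-2 library of batch 190306 lay within the spleen range. In CD8 cells Rps27l was 26.7, 27.5 and 23.0 (IgG) and 26.1, 20.7 and 26.2 (anti-IL-2) in the spleen, and 18.8 and 18.1 (IgG) and 26.6, 18.6 and 21.96 (anti-IL-2) in the gut, where it did not pass.

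Rpl7l1, a relative of Rpl7 with a role in ribosome assembly, was 65.3, 60.7 and 56.2 (IgG) and 59.0, 58.4 and 57.6 (anti-IL-2) in CD4 spleen, and 49.4 and 47.4 (IgG) and 47.0, 46.1 and 51.0 (anti-IL-2) in CD4 gut. All CD4 gut libraries were below all CD4 spleen libraries. The log2 fold change of Rpl7l1 was -0.29 ± 0.05 (adjusted p = 0.000362) in CD4 and -0.17 ± 0.05 (0.0117) in CD8 cells, and Rpl7l1 was lower in all 5 within-batch pairs in both.

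**Figure D4:**
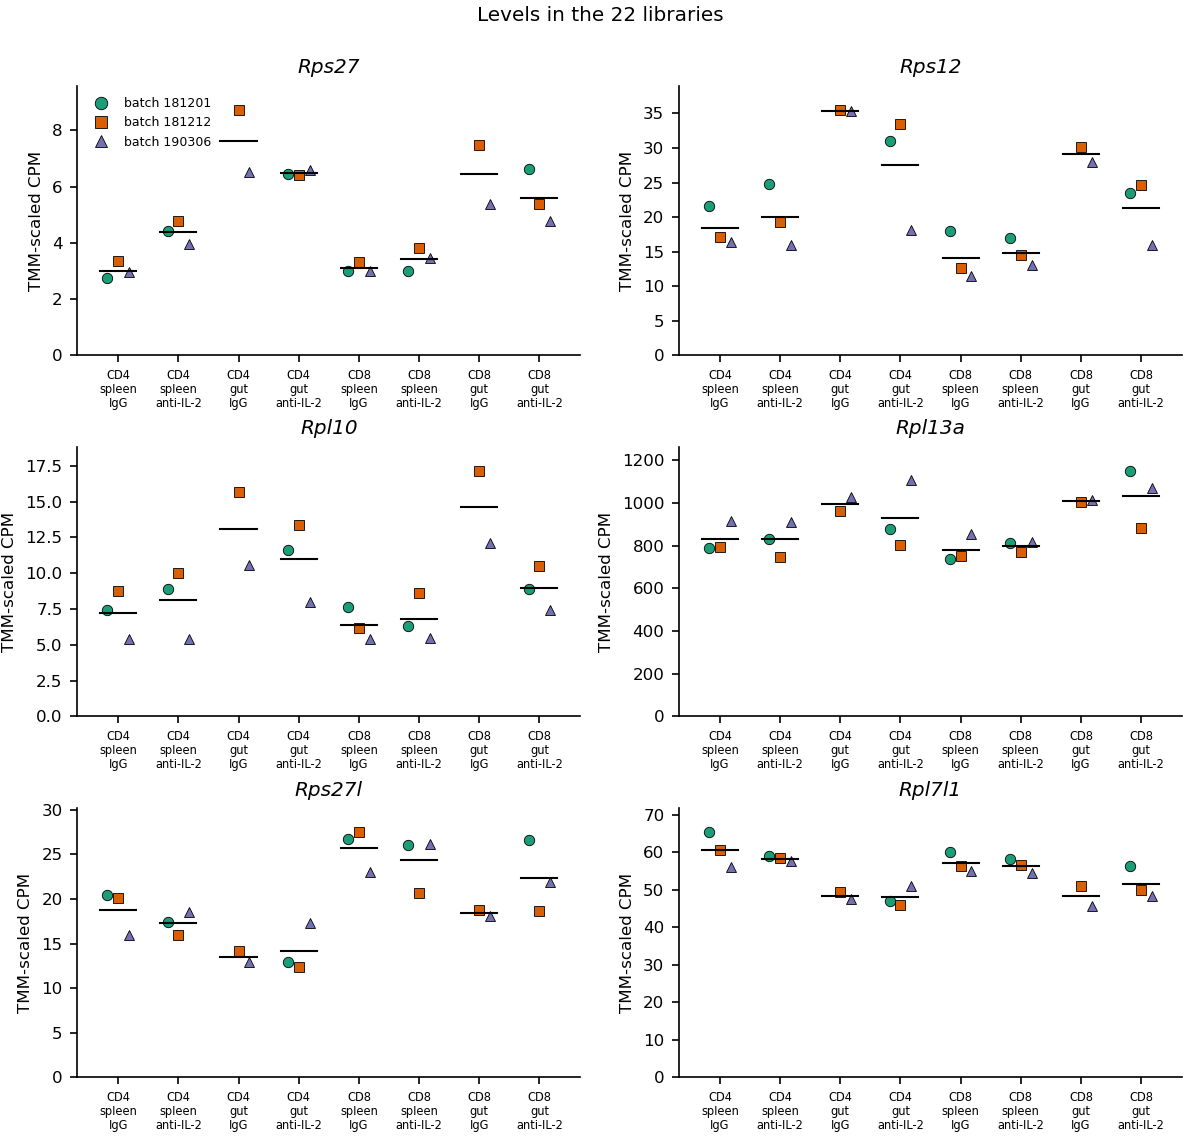
TMM-scaled CPM (vertical axes from 0) of 6 genes in each of the 22 libraries by group; colour and shape give the batch and the black line is the group mean. Rps27 is higher in every gut library than in every spleen library of the same cell type, and Rpl7l1 in CD4 cells runs the other way (46.1 to 51.0 in gut, 56.2 to 65.3 in spleen).

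Compared within batch and treatment, 33 of the 82 genes were higher in gut in all 5 CD8 pairs (22.3% of all genes) and 1 was lower (22.3%), and in CD4 cells 12 were higher (23.6%) and 5 were lower (20.2%). The median log2 difference of the 82 genes was positive in all 5 CD8 pairs, from 0.09 to 0.30. In CD4 cells it was -0.11 for anti-IL-2 in batch 181201, 0.24 for IgG and -0.02 for anti-IL-2 in batch 181212, and 0.10 and 0.13 in batch 190306. In CD4 cells the 2 negative medians were thus the anti-IL-2 pairs of the earlier batches.

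Genes were also set side by side by the sequence they share with others, by level and by hosted RNAs, and differences between these classes were not tested. Over all genes, 18.4% were higher and 16.7% lower in gut in CD8 cells, and 19.1% and 16.0% in CD4 cells. Among the 16 genes with under 25% of windows found in no other gene, 9 rose in CD8 cells (median log2 fold change 0.41) and 6 in CD4 cells (0.26). Among the 26 genes with 75% or more, 7 rose and 1 fell in CD8 cells (0.14), and 3 rose and 2 fell in CD4 cells (0.05). By level, 10 of the 27 genes under 10 CPM rose in CD8 cells (median 0.29) and 5 in CD4 cells (0.20), and 11 of the 27 genes of 100 CPM or more rose in CD8 cells (0.15) and 4 in CD4 cells (0.08). Within the bounds of 30 of the 82 genes, on the same strand, lies at least 1 annotated small nucleolar RNA (snoRNA), RNAs that guide the modification of ribosomal RNA. Of the 30 hosts, 14 rose in CD8 and 9 in CD4 cells, and of the 52 others, 17 rose and 1 fell in CD8 and 4 rose and 2 fell in CD4 cells. The median was 0.17 in CD8 cells for both. Of 22 hosted snoRNAs tested, 7 rose in CD8 and 5 in CD4 cells and 0 fell. Snord83b within Rpl3 rose by 1.22 ± 0.28 (adjusted p = 0.0032 in edgeR) in CD4 and 1.70 ± 0.28 (0.000301) in CD8 cells. Its counts were low, at 570 over all 22 libraries together. Reads of a host and its snoRNA may not be told apart in such counts. Short transcripts as a class were higher in gut, with a median of 0.11 in CD4 and 0.10 in CD8 cells over 868 genes under 1000 bases outside the group.

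The other lists are given beside the shares of all genes in these contrasts, 19.1% higher and 16.0% lower in CD4 and 18.4% higher and 16.7% lower in CD8 cells. Of 64 ribosome biogenesis genes, 4 rose and 35 fell in gut in CD4 cells (median -0.20), and 5 rose and 18 fell in CD8 cells (-0.09). Sdad1, of large-subunit export, fell by 0.68 ± 0.05 (adjusted p = 2.42e-07) in CD4 and 0.52 ± 0.05 (3.05e-06) in CD8 cells, and Utp20, of small-subunit processing, fell by 0.72 ± 0.06 (6.12e-07) in CD4 cells. Of 14 assembly chaperones and importers, 6 fell in CD4 and 8 in CD8 cells and 0 rose. Of 20 other TOP mRNAs, 6 rose in CD4 and 5 in CD8 cells and 0 fell, with medians of 0.15 and 0.14, led by the snoRNA host Snhg1 at 0.56 ± 0.10 (0.000444) in CD4 and 0.79 ± 0.10 (2.33e-05) in CD8 cells. Of 75 mitochondrial ribosomal protein genes, 6 rose and 10 fell in CD4, and 7 rose and 4 fell in CD8 cells. Of 17 genes mutated in Diamond-Blackfan anaemia, 1 (Rps27) rose in CD4 and 7 rose in CD8 cells. Beside these, 18 of 24 stress and immediate early genes rose in gut CD4 and 17 in gut CD8 cells, and 27 of 30 proliferation genes fell in gut CD8 cells, where 0 fell in CD4 cells. Their part in the result was not tested.

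The next comparison asked how CD4 and CD8 cells of a tissue differed. In the spleen, 10 of the 82 genes were higher and 6 lower in CD4 than in CD8 cells, where 47.0% of all genes passed. Of all 12841 genes, 2939 were higher and 3099 lower. The median was 0.03 for the 82 genes and 0.01 for all genes. Rps13 (log2 fold change 0.47 ± 0.15, adjusted p = 0.0204 in edgeR), Rps12 (0.41 ± 0.10, 0.00389), Rpl12 (0.39 ± 0.11, 0.0102), Rpl29 (0.37 ± 0.11, 0.0152) and Rps19 (0.32 ± 0.07, 0.00199), the gene most often mutated in Diamond-Blackfan anaemia, were higher in CD4 cells. Rps27l (-0.47 ± 0.10, 0.00178), Rpl41 (-0.26 ± 0.07, 0.00695), Rps2 (-0.24 ± 0.08, 0.0216) and Rps26 (-0.21 ± 0.05, 0.00238) were lower.

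The CD4 spleen libraries of Rps27l were at 15.9 to 20.5 CPM and its CD8 spleen libraries at 20.7 to 27.5, next to each other but with no overlap. Rps26, in CD4 spleen, was 147, 143 and 197 (IgG) and 156, 147 and 198 (anti-IL-2), and in CD8 spleen it was 177, 170.0 and 220.4 (IgG) and 176, 175 and 219.6 (anti-IL-2). Rps26 was lower in CD4 cells in all 6 within-batch pairs, with batch 190306 high in both cell types. With the length offset the split became 31 higher and 1 lower, 12 were higher and 4 lower without TMM, and 11 were higher and 4 lower in DESeq2. The count was 9 or 10 without any 1 of 5 spleen libraries (CD4 IgG of 190306, CD4 anti-IL-2 of 181201 or 181212, CD8 IgG of 181212 and CD8 anti-IL-2 of 190306). It was 4 without the batch term, 3 with IgG libraries alone and 5 with anti-IL-2 libraries alone. All 30 proliferation genes and 59 of 74 respiratory chain genes were lower in spleen CD4 cells, and their part in the result was not tested.

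In the gut, 1 gene, Rps12 (0.32 ± 0.11, adjusted p = 0.0376), was higher and 7 were lower in CD4 cells, where 31.9% of all genes passed. Of all 12841 genes, 1985 were higher and 2106 lower. The 7 lower genes of the group were Rps27l (-0.55 ± 0.12, 0.00275), Rpl31 (-0.33 ± 0.10, 0.0249), Rps26 (-0.26 ± 0.05, 0.00204), Rpl35a (-0.23 ± 0.06, 0.00904), Rps20 (-0.22 ± 0.05, 0.0062), Rps3a1 (-0.17 ± 0.05, 0.021) and Rps15 (-0.17 ± 0.05, 0.0282). The median was -0.05 for the 82 genes and -0.01 for all genes. Without TMM 0 were higher and 12 lower, and with the length offset 9 were higher and 3 lower, so the direction of the group in the gut depends on the length correction. The count was 20 without the CD4 gut anti-IL-2 library of batch 190306, 4 without that of batch 181201 and 5 without the CD8 gut anti-IL-2 library of batch 181201. It was 2 without the batch term, 0 with IgG libraries alone and 10 with anti-IL-2 libraries alone. With a batch by treatment term, which the fit as reported does not hold, it was above 20. In all 6 within-batch pairs of the spleen, 14 of the 82 genes were higher (29.3% of all genes) and 11 were lower (29.3%) in CD4 cells, and in all 5 pairs of the gut 3 were higher (24.8%) and 19 were lower (24.5%). Rps27l, Rps26, Rpl41, Rpl7a, Rpl31, Rpl8, Rps2 and Rpsa were lower in every pair in both tissues, and Rps12 was higher in every pair in both.

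The labelled treatment comparison asked how antibody against IL-2 changed the genes in each population. With all 22 libraries, 0 of the 82 genes and 0.0% of all genes passed in edgeR in any of the 4 populations. At an unadjusted p under 0.05, 5 of the 82 genes (282 of all genes) were counted for CD4 cells of the spleen, 1 (148) for CD8 cells of the spleen, 8 (750) for CD4 cells of the gut and 6 (953) for CD8 cells of the gut. DESeq2 called 1 of the 82, in gut CD8 cells, and 0 elsewhere, and limma voom called 0 in each. The median log2 fold changes were 0.04 and 0.05 for CD4 and CD8 cells of the spleen, and -0.13 and 0.0083 for those of the gut. This fit averages batches in which Il2ra ran in opposite directions, so it cannot show whether the treatment changed the genes. Il2ra itself in spleen CD4 cells was at -0.99 ± 0.82 (adjusted p = 0.993 in edgeR) with all batches. In batches 181201 and 181212 alone it was at -2.01 ± 0.12 (2.21e-06).

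In batches 181201 and 181212 alone (14 libraries), the count of calls was highest in gut CD4 cells, where 19 of the 82 genes were lower with anti-IL-2 and 0 were higher. Over all 13073 genes, 11.7% passed, 6.04% higher and 5.68% lower. The median log2 fold change of the 82 genes was -0.26, that of all genes was 0.0074, and 75 of 82 values were negative. This rests on 1 CD4 gut IgG library, of batch 181212, against 2 CD4 gut anti-IL-2 libraries, and the spread is taken from the other groups. Without the anti-IL-2 library of batch 181201, 7 passed, and 10 passed without that of batch 181212. DESeq2 called 13 and a fit without the batch term called 9.

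Among the 19, Rpl32 in the gut CD4 libraries was 330.4 CPM in IgG of batch 181212 and 258 and 248 in anti-IL-2 of batches 181201 and 181212, while in batch 190306 it was 254 in IgG and 296 in anti-IL-2. Rps2 was 142 in IgG and 101 and 109 in anti-IL-2 in the earlier batches, and 161 and 188 in batch 190306. Rplp0, the base of the stalk, was 981 in IgG and 798 and 793 in anti-IL-2 in the earlier batches, and 1060.1 and 1135 in batch 190306. In each of the 3 the anti-IL-2 libraries were the lower in the earlier batches and the higher in batch 190306.

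The log2 fold change in the earlier batches was -0.42 ± 0.07 (adjusted p = 0.00181 in edgeR) for Rpl32, -0.41 ± 0.08 (0.00685) for Rps2, -0.32 ± 0.06 (0.00614) for Rplp0, -0.52 ± 0.14 (0.0261) for Rpl5 and -0.44 ± 0.12 (0.0318) for Rpl29. The other 14 fell by 0.24 (Rps3a1) to 0.38 (Rpl41), and Rpl3, Rpl7a, Rps3, Rpl8 and Rpl4 were among those between them. Rps27 and Rps12, which led the tissue difference, did not pass.

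Other genes of the translation machinery in gut CD4 cells of these batches are given beside the 6.04% of all genes that were higher and the 5.68% that were lower. Of 42 translation factors, 1 rose and 11 fell, among them Eef2, the elongation factor that moves the ribosome along, by 0.39 ± 0.06 (adjusted p = 0.00133). Of 20 other TOP mRNAs, 6 fell and 0 rose, with Rack1 falling by 0.35 ± 0.06 (0.00478). Of 64 ribosome biogenesis genes 1 rose and 5 fell, and of 75 mitochondrial ribosomal protein genes 1 rose and 6 fell. Of 30 proliferation genes 8 were higher and 0 lower. The summed CPM of fat, pancreas and fibroblast markers was 1.11 in the IgG library and 18.2 and 52.3 in the anti-IL-2 libraries, and that of stress and immediate early genes was 11886 in IgG and 7448 and 9234 in anti-IL-2. Their part in the result was not tested.

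The other populations showed few differences in these 2 batches. In spleen CD4 cells 3 genes rose and 0 fell, where 20.1% of all genes passed (9.8% higher, 10.3% lower). Rpl35a rose by 0.30 ± 0.08 (adjusted p = 0.0217), Rplp1 by 0.28 ± 0.06 (0.00554) and Rps20 by 0.25 ± 0.06 (0.0095). Rplp1 in spleen CD4 cells was 279.7 and 261 in IgG and 352 and 301 in anti-IL-2, and in batch 190306 it was 477 and 452. Leaving out single libraries gave 0 without CD4 spleen anti-IL-2 of batch 181201, 1 without either CD4 spleen IgG library, 2 without CD4 spleen anti-IL-2 of batch 181212, and 6 without either CD8 gut anti-IL-2 library. The CD4 spleen anti-IL-2 library of batch 181201 had a summed CPM of 997 for macrophage markers and 39.1 for erythroid markers, where the IgG libraries of CD4 spleen had 501 and 452 for macrophage and 2.4 and 0.06 for erythroid markers, and the part of these was not tested. In spleen CD8 cells 0 genes passed in edgeR, where 12.1% of all genes passed (6.06% higher, 6.08% lower), 10 of the 82 had an unadjusted p under 0.05, and DESeq2 and limma voom also called 0. The count was 3 without either CD8 gut anti-IL-2 library and 1 without CD4 spleen anti-IL-2 of batch 181201.

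In gut CD8 cells 1 gene rose and 2 fell, where 10.7% of all genes passed (5.51% higher, 5.22% lower). Rps10 was 7.27 in IgG of batch 181212 and 15.7 and 17.5 in anti-IL-2 of batches 181201 and 181212, with 19.3 in IgG and 17.7 in anti-IL-2 of batch 190306. The single IgG library of the earlier batches was thus the low one. Rps10 was as low in CD4 gut anti-IL-2 (6.65) and CD8 spleen IgG (7.02) of batch 181201, and at 11.5 to 21.3 in all remaining libraries. The log2 fold change of Rps10 was 1.30 ± 0.30 (adjusted p = 0.0213), that of Rpl10 was -0.74 ± 0.19 (0.025) and that of Rpl5 was -0.48 ± 0.13 (0.0353). Without the CD8 gut anti-IL-2 library of batch 181201, 0 passed.

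Whether the treatment difference of CD4 cells differed between gut and spleen was tested in the same 14 libraries. It differed for 8 of the 82 genes, all lower in gut, where 5.39% of all genes passed and 1.94% were lower. They were Rplp1 (-0.42 ± 0.10, adjusted p = 0.0281), Rps9 (-0.41 ± 0.09, 0.0177), Rpl32 (-0.41 ± 0.09, 0.0142), Rps3, Rps15, Rps3a1, Rps26 and Rpl8 (-0.33 ± 0.09, 0.0403). The median was -0.31 for the 82 genes and 0.0068 for all genes. The count was 0 without CD4 spleen anti-IL-2 of batch 181201, 0 without either CD4 gut anti-IL-2 library and 0 without the batch term. It was 4 or 5 without either CD4 spleen IgG library or any 1 of the CD8 spleen libraries.

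The labelled difference was then compared between batch 190306 and the others. In gut CD4 cells, 18 of the 82 genes had a higher anti-IL-2 minus IgG difference in batch 190306 and 1, Rps12, had a lower one, where 21.4% of all genes passed. Of all 12841 genes, 1477 were higher and 1273 lower. Batch 190306 holds 1 library of each group. The earlier batches hold 1 CD4 gut IgG library, of batch 181212, which was also used in the fit of those batches alone. Among the 82 genes in gut CD4 cells, the largest differences were as follows. Rpl29 (0.76 ± 0.18, adjusted p = 0.0086), Rps27l (0.70 ± 0.18, 0.0125), Rpl14 (0.64 ± 0.10, 0.000509) and Rps2 (0.55 ± 0.09, 0.000794) led, and Rps12 was at -0.59 ± 0.19 (0.04). The count in gut CD4 cells was 9 without the CD4 gut anti-IL-2 library of batch 181201 and 12 without that of batch 181212. In spleen CD4 cells 5 were higher and 2 lower (24.2% of all genes, with 1679 higher and 1432 lower). In spleen CD8 cells 2, Rps2 and Rpl7a, were higher and 0 lower (18.6%, with 9.22% higher and 9.35% lower). In gut CD8 cells 1, Rpl27a at -0.49 ± 0.15 (0.04), was lower and 0 were higher (16.7%, with 1019 of all genes higher and 1120 lower). Leaving out either CD4 spleen anti-IL-2 library of the earlier batches gave 3 in spleen CD4 cells. Of 21 omissions of a library, 6 gave 1 in spleen CD8 cells and 11 gave 0 in gut CD8 cells.

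Within single batches, the median treatment difference of the 82 genes in gut CD4 cells was -0.23 in batch 181212, with 73 of 82 lower, and 0.06 in batch 190306. In gut CD8 cells it was -0.06 and 0.02. In the spleen it was 0.06, 0.01 and 0.03 in CD4 cells and 0.05, 0.09 and 0.007 in CD8 cells, for batches 181201, 181212 and 190306. Gut CD4 cells of batch 181212 were thus the 1 case with a median beyond 0.1 in either direction.

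**Figure D5:**
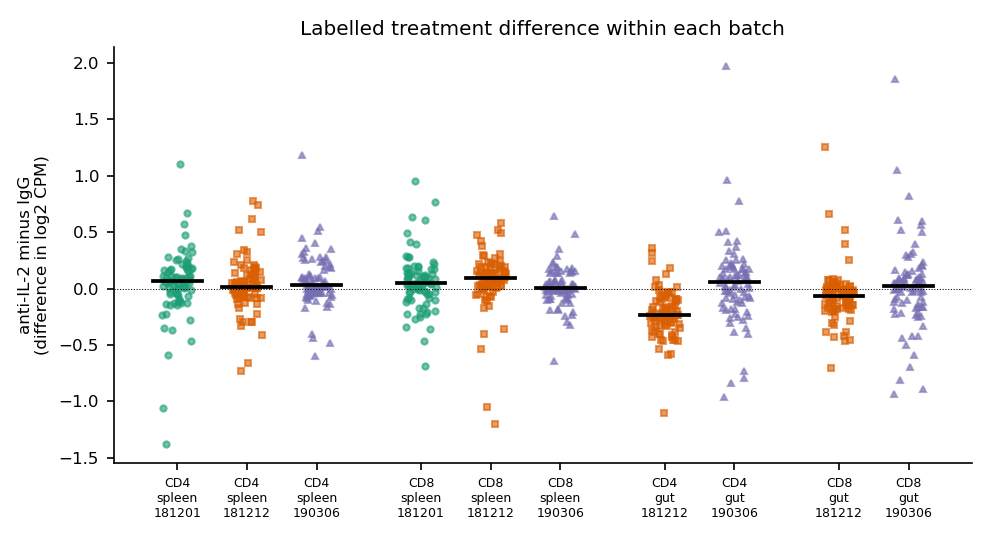
Difference in log2 CPM between the anti-IL-2 and the IgG library (vertical) for each of the 82 genes, by population and batch (horizontal); each point is a gene and the black line is the median. The medians lie between -0.06 and 0.09, except in gut CD4 cells of batch 181212, where the median is -0.23.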

How the data were processed

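RNA was measured by stranded mRNA sequencing in 22 libraries, 14628806 to 24518362 counts each. The deposited values are raw counts per gene symbol that the authors made with TopHat2 and HTSeq 0.9.1 on mm10, per the submitters' processing notes; annotation and strand setting are not given in the sources used here. Without molecular identifiers, reads of PCR copies are not separate molecules.

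Counts were fitted in edgeR 4.0.16 (R 4.3.3): filterByExpr, TMM, and a robust quasi-likelihood model of 8 groups with batch as a fixed term, 12841 genes and 12 residual degrees of freedom. Replicate numbers run in the order of the batches within each group, so gut IgG replicates 1 and 2 are of batches 181212 and 190306. The additive batch term pairs the libraries of a batch and does not separate the treatments within it. The fit of batches 181201 and 181212 alone had 13073 genes, 14 libraries and 5 residual degrees of freedom, with each gut IgG group a single library. The threshold was 0.05 on p-values adjusted by the Benjamini-Hochberg method across every tested gene. Log2 CPM used a prior count of 2. Simulated counts without batch effects were used to try the CD4 gut against spleen contrast of the full fit. The other contrasts and the fit of batches 181201 and 181212 alone were not tried in this way. Alternatives were DESeq2 1.42.0, limma 3.58.1 (voom), other scalings, no filter, a transcript length offset, no batch term, leaving out libraries or batch 190306, and single treatments.

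Symbols were matched to GENCODE M21 (23509 of 24091; all 82 genes). Start windows came from RefSeq. A transcript window counted as unique when no other annotated transcript held it.

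The members and lists were chosen with earlier results of these data known. Named genes were a set with known roles, the 4 largest changes in each direction per comparison, the 3 highest and lowest per kilobase, the 10 genes most like the mean of the group, and the 2 smallest p of each list; others that passed are named from the calls. A few genes are not reported here by name.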

Additional observations from a re-analysis of the deposited data

Results flagged for a closer look

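The labelled treatment difference was compared between batch 190306 and the other batches by an interaction in edgeR. It differed for 7 of the 82 genes (8.54%) in spleen CD4 and 2 (2.44%) in spleen CD8 cells, where 24.2% and 18.6% of all genes passed. In the gut it differed for 19 (23.2%) in CD4 and 1 (1.22%) in CD8 cells, where 21.4% and 16.7% of all genes passed. Counted in either direction, the share of the 82 genes was near that of all genes in gut CD4 cells and below it elsewhere. By direction, 18 of the 19 in gut CD4 cells were higher, while 1477 of all 12841 genes were higher and 1273 lower. The treatment difference of CD4 cells differed between gut and spleen for 8 genes in batches 181201 and 181212, where 5.39% of all genes passed. Outside the 82 genes, Rpl14-ps1, left out by its symbol, had a median of 291 CPM over 22 libraries. Groups of 2 or 3 libraries were too small to look for single libraries that stand apart.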

How the results depend on the processing

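The refits followed 52 pairs of named gene and comparison, which are not all the pairs given above. These 52 kept their direction in each of 1505 refits, and 180 of these refits lost the call. Rps27l in CD4 cells lost its tissue call in 6 settings and Rpl7l1 in CD8 cells in 4. Counts of genes called moved by more than 1.5 times under these alternatives, and the cause was not tested. Without the batch term (the replicate block), gut against spleen called 8 in CD4 and 14 in CD8 cells, CD4 against CD8 called 4 in spleen and 2 in gut, and in batches 181201 and 181212 the treatment called 1 in spleen CD4 and 9 in gut CD4 cells and its gut against spleen interaction called 0. No fit without the batch term was run for the batch 190306 interaction. With IgG libraries alone the tissue count was 18 in CD8 cells and the CD4 against CD8 count was 3 in spleen and 0 in gut. With anti-IL-2 libraries alone the tissue counts were 7 (CD4) and 11 (CD8), and CD4 against CD8 in spleen was 5. Without batch 190306, CD4 against CD8 in gut was 20 and the tissue interaction was 4, and a batch by treatment term gave 21 for CD4 against CD8 in gut. For CD4 against CD8 in spleen, no filter gave 10 and the length offset 32. The 2-batch treatment count in spleen CD4 was 9 without TMM, 7 with upper quartile scaling and 9 with the length offset, and in spleen CD8 it was 3, 3 and 1, and 1 without the filter. DESeq2 gave 1 for treatment in gut CD8 with all batches and 1 with 2 batches. For the batch 190306 interaction, spleen CD8 gave 1 with DESeq2, upper quartile scaling or no filter, gut CD4 gave 9 without TMM and 11 with upper quartile scaling, and gut CD8 gave 0 with DESeq2 or no filter, 4 with limma voom or without TMM and 3 with upper quartile scaling.

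Leaving out each library gave 10 to 16 for gut against spleen in CD4 and 17 to 40 in CD8 cells, 9 to 17 for CD4 against CD8 in spleen and 4 to 20 in gut, and 0 to 0 for the 4 treatment comparisons with all batches and the tissue interaction. With 2 batches the treatment gave 0 to 6 (spleen CD4), 0 to 3 (spleen CD8), 7 to 20 (gut CD4) and 0 to 3 (gut CD8), and its interaction 0 to 11. The batch 190306 interaction gave 3 to 8 (spleen CD4), 1 to 3 (spleen CD8), 9 to 19 (gut CD4) and 0 to 2 (gut CD8). Where 1 library was left in a group, it was assumed to vary like the others.

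Subsets were chosen after seeing the data. Among the 37 genes of at least 50 CPM, the share called was 45.9% (23.2% of all 82) for the 2-batch treatment in gut CD4, 0.0% (3.66%) in gut CD8, 21.6% (9.76%) for its interaction, and 13.5% (8.54%), 5.41% (2.44%), 40.5% (23.2%) and 0.0% (1.22%) for batch 190306 in spleen CD4, spleen CD8, gut CD4 and gut CD8. Among the 47 genes with at least 50% of windows in no other gene it was 6.38% (3.66%) for the 2-batch treatment in spleen CD4, 0.0% (3.66%) in gut CD8, 17.0% (9.76%) for the interaction, and 0.0% (2.44%) and 2.13% (1.22%) for batch 190306 in spleen CD8 and gut CD8. Depth limits the genes below 10 CPM, whose values varied most.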
